A study of Mus musculus with 25 samples.

Results

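The collagen gene family was read on 25 single-colour Affymetrix whole-transcript arrays of mouse mammary tissue. Members were taken by symbol: every gene named Col, a number, the letter a and a number, apart from Col17a1, that had a probe set with a single gene symbol. This gave 43 genes of the 19937 measured with a single symbol, each read by its brightest probe set. The rule itself uses gene names only, but the family was chosen with earlier results of these data known. Values are log2 signal intensities as deposited.

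The arrays fall into 4 groups by label. There were 10 tumors of K8-creERT2/PIK3CA H1047R mice and 10 tumors of Lgr5-creERT2/PIK3CA H1047R mice, 2 reference glands of K8-creERT2 control mice and 3 reference glands of Lgr5-creERT2 control mice. Tamoxifen at 7 to 8 weeks of age activated creERT2, a drug-inducible recombinase, which switched on the H1047R mutant of the PI3-kinase subunit PIK3CA in keratin 8-positive (K8) or Lgr5-positive cells. The control mice carried the same recombinase without the PIK3CA allele in their labels. The same age at tamoxifen is given for all 25 arrays, glands included. That comes from shared protocol text, and the labels do not say separately whether control mice were treated. K8 mice had a mixed FVB/CD1 background and Lgr5 mice a mixed FVB/C57/BL6 background, so the driver and the background cannot be told apart. Whole tissue was cryo-homogenized, so every value mixes epithelium, stroma, vessels and fat, and fewer cells of a type and less RNA per cell cannot be told apart. Whether each tumor of a line is from its own animal is not labelled, and the p-values then measure only how these arrays vary, which may be technical spread.

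Several arrays went against their labels, and each group below is therefore a set of arrays labelled as such. The mean of 13 adipocyte markers was 12.49 to 12.69 (log2) in Lgr5 tumors 2, 6, 7, 8 and 9, while other Lgr5 tumors ranged from 9.50 to 10.97 and K8 tumors from 7.83 to 11.25. The 5 arrays labelled gland, though normal mammary gland lies in a fat pad, ranged from 7.48 to 9.62. The same 5 Lgr5 tumors had the lowest mean of 8 luminal epithelial markers, 9.45 to 10.19, against 11.05 to 11.83 in K8 tumors and 11.26 to 11.73 in glands. The mean of 11 squamous markers was 8.01 to 9.62 in the glands, 8.75 in K8 tumor 9 and 9.12 in Lgr5 tumor 10, but 5.63 to 7.41 in the other tumor arrays. The mean of 9 cell cycle markers was 9.55 to 10.06 in the arrays labelled gland, 8.67 to 9.58 in K8 tumors and 6.89 to 8.15 in the 5 fat-rich Lgr5 tumors, so the arrays labelled gland were the highest or near it. The mean of 8 skeletal muscle markers was 10.56 in K8 tumor 7 and 10.01, 10.71 and 9.79 in Lgr5 tumors 1, 4 and 10. It was 8.95 in K8 tumor 8, 8.58 in K8 tumor 3 and 8.51 in Lgr5 gland 3. In all other arrays it was 6.48 to 7.40. No fit left out the muscle-high arrays as a set. Whether labels and values are matched in the deposited table was not tested, and every direction below is between labels. No array was moved to another group. Results are given with all arrays, without the 5 fat-rich Lgr5 tumors, and without K8 tumor 9 and Lgr5 tumor 10.

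Collagens are trimers of chains wound into a triple helix, and different chain combinations build different structures. Fibrillar collagens (types I, III, V) form the cables of connective tissue and are made mainly by fibroblasts, type VI forms beaded filaments around cells, and type IV forms the sheet-like network of basement membranes under epithelium, vessels and adipocytes. In the mammary gland, collagen sits between the ducts and the fat pad, and stromal collagen is a known component of mammary tumors. The 43 genes comprised 11 fibrillar chains, 6 type IV chains, 6 type VI chains, 9 fibril-associated chains, 2 multiplexins, 3 transmembrane collagens, 3 chains of types VIII and X, and 3 others.

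Some chains that belong to 1 molecule are also neighbours in the genome, and the start regions of such pairs are shown here because the chains of each pair are compared array by array below. Upstream windows from RefSeq (build GRCm38.p6) were matched for 34 of the 43 members. Col4a1 and Col4a2, the main type IV chains, are transcribed away from each other, Col4a2 on the plus strand and Col4a1 on the minus strand. By the starts that the windows use, both genes overlap by 22 bases at chr8:11312805-11312826, and their windows share 78 bases. The annotated span of Col4a1 reaches farther than this start, so other starts are annotated. The overlapping bases, which lie inside both genes, are on the plus strand:
Col4a1 and Col4a2: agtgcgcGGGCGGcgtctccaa
Capitals mark GGGCGG, the core of a GC box, the element that Sp1-family factors bind. Col4a5 and Col4a6, the epithelial type IV chains, are likewise transcribed away from each other, on the X chromosome, with window starts 1343 bases apart. The windows below hold the bases upstream of the annotated gene, at chrX:141475169-141475369 on the plus strand for Col4a5 and chrX:141474096-141474326 on the minus strand for Col4a6:
Col4a5: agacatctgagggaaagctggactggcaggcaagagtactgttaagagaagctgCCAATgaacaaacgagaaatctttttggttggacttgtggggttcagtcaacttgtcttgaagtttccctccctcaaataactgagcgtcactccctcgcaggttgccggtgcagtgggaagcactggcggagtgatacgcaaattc
Col4a6: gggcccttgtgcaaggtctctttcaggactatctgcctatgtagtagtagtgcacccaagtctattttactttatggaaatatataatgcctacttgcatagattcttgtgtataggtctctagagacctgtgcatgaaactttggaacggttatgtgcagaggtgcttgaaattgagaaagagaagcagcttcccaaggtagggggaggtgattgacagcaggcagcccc

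Col1a2 and Col3a1, fibrillar chains that were called in both tumor-gland comparisons, are shown for contrast, since they lie on different chromosomes, at chr6:4505368-4505617 and chr1:45311288-45311537, both on the plus strand:
Col1a2: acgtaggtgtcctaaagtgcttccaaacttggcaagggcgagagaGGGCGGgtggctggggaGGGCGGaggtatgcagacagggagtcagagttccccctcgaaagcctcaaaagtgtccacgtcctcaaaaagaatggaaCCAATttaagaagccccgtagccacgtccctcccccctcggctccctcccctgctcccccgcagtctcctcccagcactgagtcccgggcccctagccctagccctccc
Col3a1: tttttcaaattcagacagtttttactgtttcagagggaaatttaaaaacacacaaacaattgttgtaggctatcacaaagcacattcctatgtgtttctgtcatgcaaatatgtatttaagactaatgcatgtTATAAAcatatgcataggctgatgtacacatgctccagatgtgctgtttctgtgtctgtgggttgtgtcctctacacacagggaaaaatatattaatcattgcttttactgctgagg
Capitals mark the GC box core, the CCAAT box and the TATA box core TATAAA, searched on both strands. Over the 250 upstream bases of all 32851 windows in the table, GGGCGG was found in 32.7%, CCAAT in 33.8% and TATAAA in 12.4%. Among the 37 windows of collagen genes the shares were 59.5% (22 windows), 32.4% (12 windows) and 10.8% (4 windows). These matches are letters in a window and were not tested for binding.

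Over the 25 arrays, 17 members spanned at least 2 log2 units between their lowest and highest array. Another 10 members spanned less than 0.5: Col4a3, Col4a4, Col6a4, Col11a2, Col19a1, Col20a1, Col22a1, Col24a1, Col27a1 and Col28a1. None of these 10 passed the test in any comparison with arrays weighted equally. With array weights Col4a4 was called between Lgr5 tumors and Lgr5 glands. The widest spans were those of Col8a1, a short-chain network collagen of vessel and stromal matrix, at 4.20, and Col12a1, a fibril-associated collagen of dense connective tissue, at 4.13. The 8 major fibrillar, type VI and type IV chains spanned from 2.13 for Col6a1 to 3.15 for Col3a1.

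The low arrays were not the same for all members, and 2 arrangements recurred. For Col1a2, Col3a1, Col4a1, Col4a2, Col6a1, Col6a2, Col6a3 and Col15a1, the 5 lowest arrays all lay among the 5 arrays labelled gland and K8 tumor 9. For Col4a5, Col4a6, Col8a1, Col9a3 and Col11a1, the 5 lowest arrays were instead Lgr5 tumors 2, 6, 7, 8 and 9, which were also the arrays with the highest adipocyte markers. How many of all genes share either arrangement was not counted, so neither is shown to be particular to collagen genes.

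**Figure D1:**
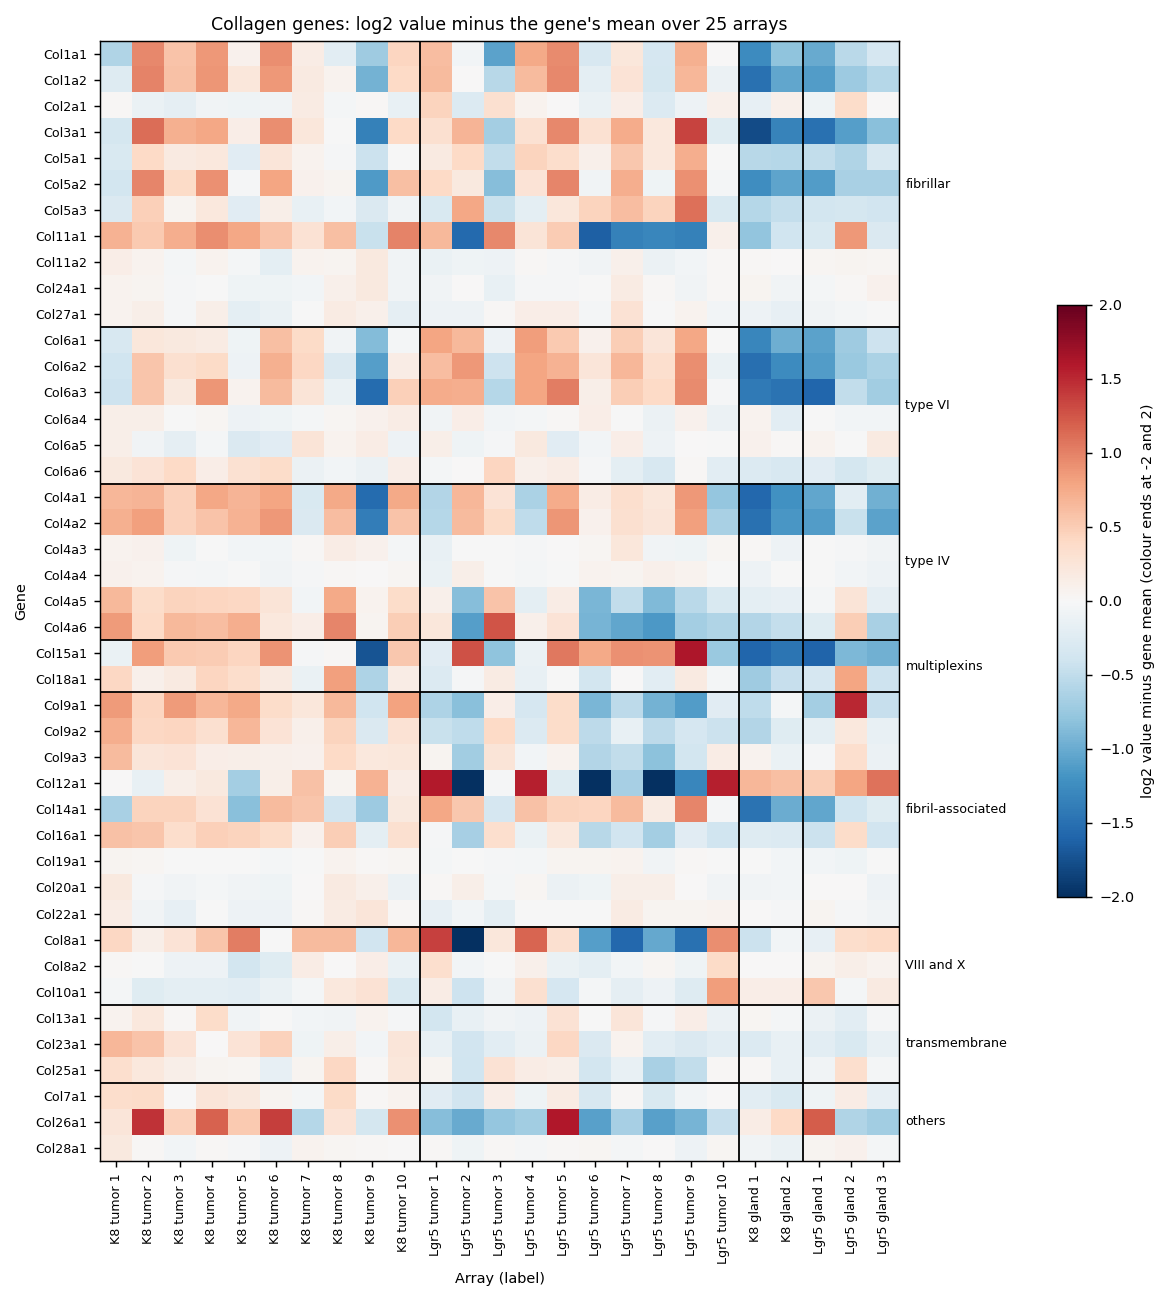
Log2 value of each of the 43 collagen genes (rows, ordered by role) in each of the 25 arrays (columns, ordered by label) minus that gene's mean over all arrays, with the colour scale ending at -2 and 2. The stromal chains Col1a2, Col3a1, Col6a1 to Col6a3 and Col15a1 are low in the 5 arrays labelled gland and in K8 tumor 9, whereas Col11a1, Col4a5, Col4a6 and Col8a1 are low in Lgr5 tumors 2, 6, 7, 8 and 9.

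The first comparison asked how collagen genes differed between arrays labelled tumor and gland within each line. In both lines the chains that passed were higher in the tumor arrays. They comprised 3 fibrillar and 3 type VI chains in each line, 2 type IV chains in the K8 line and none in the Lgr5 line, and a few fibril-associated and other chains. In the Lgr5 line 8 of 43 members were higher and 0 lower (limma, adjusted p under 0.05 over all genes), where 5.28% of all genes were higher and 10.6% lower. In the K8 line 11 of 43 were higher and 0 lower, where 3.42% of all genes were higher and 5.69% lower. In either direction 15.9% and 9.1% of all genes passed. Col1a2, Col3a1, Col6a1, Col6a2, Col6a3 and Col14a1 were called in both lines, 6 of the 8 and 6 of the 11. Over all 43 members the median log2 difference was 0.03 in the Lgr5 line and 0.46 in the K8 line, against -0.01 over all genes in both.

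The calls rest on few gland arrays. Without Lgr5 gland 1 the Lgr5 count was 0 (limma), and 0.181% of all genes were higher. Without Lgr5 gland 2 or Lgr5 gland 3 it was 4, against 2.92% and 0.943% of all genes, and without Lgr5 tumor 10 it was 11, against 9.86%. The K8 count was 0 without K8 gland 1 or K8 gland 2 (12 and 15 unadjusted), where 0.01% and 0.0552% of all genes were higher, fits in which the lone gland is assumed to vary like the other groups. It was 7 without K8 tumor 2, K8 tumor 6 or K8 tumor 10, against 2.54%, 2.37% and 2.69% of all genes, and 18 without K8 tumor 9, against 6.97%. The counts over all genes moved the same way in these fits. With only the 2 groups compared in the fit the Lgr5 count was 4, against 1.1%.

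The arrays that stand apart by adipocyte or squamous markers also moved the counts. Without the 5 fat-rich Lgr5 tumors the Lgr5 count was 0 (0% of all genes were higher) and the K8 count 13 (4.73% of all genes). Without K8 tumor 9 and Lgr5 tumor 10 the counts were 12 and 18, against 10.7% and 8.09% of all genes. Without all 7 they were 8 and 22, against 7.14% and 11.4%. With array weights 13 and 23 members were higher, against 17.4% and 13.9%, and with replicate numbers blocked 3 and 1, against 2.73% and 3.14%. The block kept 2 of the 8 Lgr5 calls, Col6a1 and Col6a2, and 0 of the 11 K8 calls, and in both lines it called Col6a6, which did not pass with every array and no block. The members called with every array kept their direction in each of these fits.

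Among fibrillar chains, Col3a1, which forms the thin fibrils of loose connective tissue, gave the largest difference in both lines. It read 10.26 at the lowest, 11.25 at the median and 12.29 at the highest in Lgr5 tumors, against 9.45, 9.83 and 10.09 in the 3 Lgr5 glands. Every Lgr5 tumor was above every Lgr5 gland, the nearest being Lgr5 tumor 3. How many of all genes have groups that do not overlap was not counted. With so few glands, overlap is given here and below only to describe the arrays. The difference was 1.54 ± 0.40 (log2, SE; 2.92-fold; limma adjusted p = 0.0168), and without the 5 fat-rich tumors it was 1.28 (adjusted p = 0.155). In K8 tumors Col3a1 read 9.59, 11.25 and 12.06 at the lowest, median and highest, against 9.14 and 9.60 in both K8 glands. K8 tumor 9 alone lay within the range of the glands. The difference was 1.82 ± 0.47 (3.54-fold; adjusted p = 0.0227), and with K8 tumor 9 and Lgr5 tumor 10 left out 2.00 (adjusted p = 0.000725).

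Col1a2, which encodes the second chain of type I collagen, was also higher in both lines. Its values were 10.72, 11.42 and 12.23 (lowest, median, highest) in Lgr5 tumors and 10.16, 10.56 and 10.70 in Lgr5 glands. In K8 tumors they were 10.33, 11.59 and 12.27, against 9.78 and 10.24 in K8 glands. The groups did not overlap in either line, although Lgr5 tumor 3 stood only just above the highest Lgr5 gland and K8 tumor 9 just above the highest K8 gland. The differences were 1.00 ± 0.34 in the Lgr5 line (2.00-fold; adjusted p = 0.0458) and 1.57 ± 0.39 in the K8 line (2.96-fold; adjusted p = 0.0212). The Lgr5 call was near the threshold and was kept in 8 of 25 fits that each left out 1 array. The other 17 fits left out any of the 5 glands, K8 tumor 3, 5, 7, 8 or 10, or Lgr5 tumor 1, 2, 4, 5, 6, 7 or 9. The K8 call was kept in 23 of 25 and ended without K8 gland 1 or K8 gland 2.

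Col1a1, the main chain of type I collagen, did not pass in either line. It read 10.46, 11.65 and 12.48 in Lgr5 tumors and 10.53, 10.99 and 11.19 in Lgr5 glands. Lgr5 tumor 3 was below all 3 Lgr5 glands, while the other Lgr5 tumors were above them. The difference was 0.78 ± 0.38 (adjusted p = 0.157). In K8 tumors it read 10.82, 11.82 and 12.49, against 10.28 and 10.72 in K8 glands, so the groups did not overlap, and the difference was 1.28 ± 0.44 (adjusted p = 0.0707). Without K8 tumor 9 and Lgr5 tumor 10 the K8 difference was 1.39 (adjusted p = 0.0272).

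The type V chains are built into type I fibrils and limit their diameter, and each of the main ones passed in 1 line. Col5a1 had a median of 8.60 and a highest value of 9.04 in Lgr5 tumors, against 7.72, 7.83 and 8.00 in Lgr5 glands. Lgr5 tumor 3 lay within the gland range. The difference was 0.71 ± 0.18 (adjusted p = 0.0163), a call lost without Lgr5 gland 1 or Lgr5 gland 2. In the K8 line its difference was 0.57 ± 0.21 and did not pass (limma adjusted p = 0.0912), with K8 tumors at 7.88 to 8.71 and K8 glands at 7.74 and 7.76. Col5a2 passed in the K8 line, where it read 7.33, 8.69 and 9.44 in tumors and 7.21 and 7.40 in glands, with a difference of 1.38 ± 0.43 (adjusted p = 0.0445). That call was kept in 10 of 25 fits that left out 1 array: without K8 tumor 1 or 9, Lgr5 tumor 3, 5, 7, 8, 9 or 10, or Lgr5 gland 1 or 2. In the Lgr5 line Col5a2 differed by 1.04 ± 0.36 (adjusted p = 0.052). The difference of the differences between lines did not pass for either gene, so a call in 1 line only does not show that the lines differ. The remaining fibrillar chains, Col2a1, Col5a3, Col11a1, Col11a2, Col24a1 and Col27a1, passed in neither line.

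**Figure D2:**
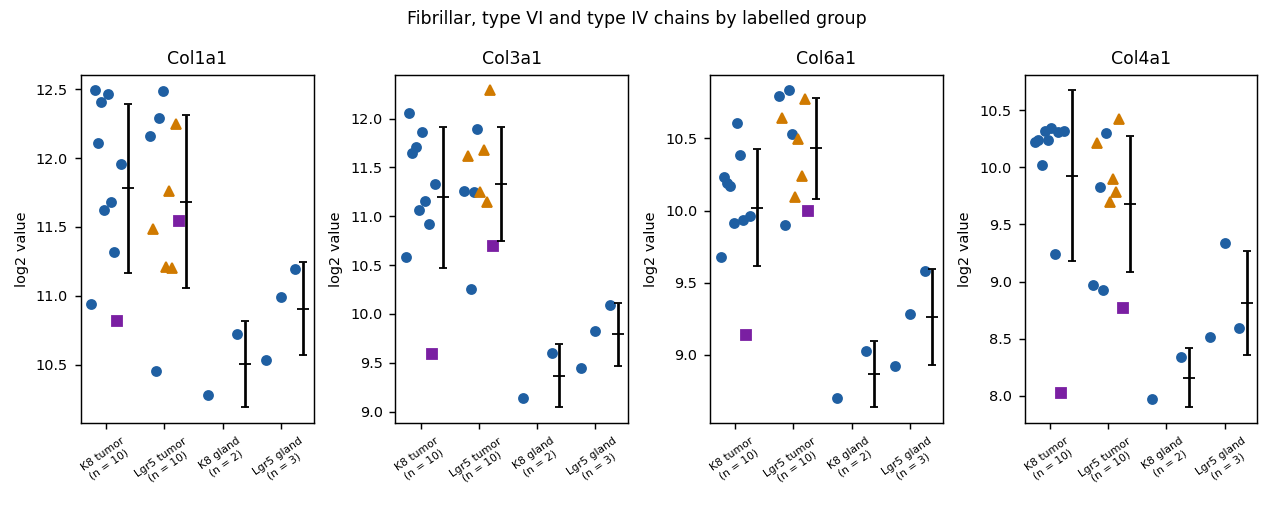
Log2 values of Col1a1, Col3a1, Col6a1 and Col4a1 in every array by labelled group, with the mean ± SD of the group as a bar beside the points. Triangles are Lgr5 tumors 2, 6, 7, 8 and 9, squares are K8 tumor 9 and Lgr5 tumor 10, and circles are all other arrays. The gland arrays and K8 tumor 9 sit low for Col3a1, Col6a1 and Col4a1.

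The 3 main chains of type VI collagen, Col6a1, Col6a2 and Col6a3, were higher in tumor arrays of both lines. Col6a1 read 9.90, 10.52 and 10.83 in Lgr5 tumors and 8.92, 9.28 and 9.58 in Lgr5 glands. Its values were 9.14, 10.06 and 10.61 in K8 tumors and 8.70 and 9.03 in K8 glands. The groups did not overlap in either line. The differences were 1.17 ± 0.24 in the Lgr5 line (2.25-fold; adjusted p = 0.00843) and 1.16 ± 0.28 in the K8 line (2.23-fold; adjusted p = 0.0182). Without all 7 arrays that stand apart by adipocyte or squamous markers they were 1.25 in both lines (limma adjusted p = 0.00221 and 0.00116).

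Col6a2 read 9.19, 10.25 and 10.54 in Lgr5 tumors against 8.49, 8.86 and 8.98 in Lgr5 glands, and 8.50, 9.84 and 10.32 in K8 tumors against 8.10 and 8.35 in K8 glands. Neither line had overlapping groups. The differences were 1.29 ± 0.30 (adjusted p = 0.0121) and 1.44 ± 0.35 (adjusted p = 0.0195). Col6a3, the longest of the main type VI chains, read 9.25, 10.43 and 10.84 in Lgr5 tumors and 8.23, 9.12 and 9.31 in Lgr5 glands, with Lgr5 tumor 3 below Lgr5 gland 2. In K8 tumors it read 8.28, 10.03 and 10.70, against 8.34 and 8.40 in K8 glands, and K8 tumor 9 was below both glands. The Col6a3 differences were 1.39 ± 0.37 (adjusted p = 0.0191) and 1.55 ± 0.44 (adjusted p = 0.0322). Its Lgr5 call ended without Lgr5 gland 1 or Lgr5 gland 3, that of Col6a1 and Col6a2 without Lgr5 gland 1, and the K8 calls of all 3 without either K8 gland. The alternative type VI chains Col6a4, Col6a5 and Col6a6 did not pass in either line. Col6a6 came nearest, at 0.45 ± 0.14 in the K8 line (adjusted p = 0.0508), where tumors at 7.96 to 8.47 lay above glands at 7.76 and 7.80.

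Type IV collagen, the basement membrane network, passed in the K8 line through its main chains Col4a1 and Col4a2. Col4a1 read 8.02, 10.24 and 10.34 in K8 tumors and 7.97 and 8.34 in K8 glands, and Col4a2 read 8.14, 10.12 and 10.40 against 8.04 and 8.36. K8 tumor 9 was the only K8 tumor within the gland range for either chain. The differences were 1.77 ± 0.48 for Col4a1 (3.41-fold; adjusted p = 0.0283) and 1.69 ± 0.45 for Col4a2 (3.23-fold; adjusted p = 0.0261). Without K8 tumor 9 and Lgr5 tumor 10 they were 1.98 and 1.89 (adjusted p = 0.000257 and 0.000282).

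In the Lgr5 line the same chains did not pass. Col4a1 read 8.77, 9.80 and 10.42 in Lgr5 tumors and 8.51, 8.59 and 9.34 in Lgr5 glands, a difference of 0.87 ± 0.41 (adjusted p = 0.148), and Col4a2 differed by 1.04 ± 0.38 (adjusted p = 0.0664). Lgr5 gland 2 was the highest gland for both chains and overlapped the tumor range. Without K8 tumor 9 and Lgr5 tumor 10 both passed, at 0.97 and 1.13 (adjusted p = 0.0156 and 0.00452), and without all 7 arrays they did not, at 0.69 and 0.92 (adjusted p = 0.16 and 0.0598). Col4a3 and Col4a4, chains known from the kidney filter, and the epithelial chains Col4a5 and Col4a6 passed in neither line.

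Of the multiplexins, basement membrane collagens that carry sugar chains, Col15a1 was higher in Lgr5 tumors. Its values were 8.82, 10.46 and 11.24 in Lgr5 tumors and 8.03, 8.66 and 8.74 in Lgr5 glands, with no overlap. The difference was 1.61 ± 0.49 (3.06-fold; adjusted p = 0.0301), a call that ended without any 1 of the 3 Lgr5 glands. Lgr5 tumors 2, 6, 7, 8 and 9 read 10.39 to 11.24, and Lgr5 tumor 5 read 10.69, while the other Lgr5 tumors read 8.82 to 9.49. Without the 5 fat-rich tumors the difference was 0.98 (adjusted p = 0.281). In the K8 line it was 1.71 ± 0.57 (adjusted p = 0.0614), with K8 tumor 9 at 7.91 below K8 glands at 8.04 and 8.16, and 1.93 (adjusted p = 0.00354) without K8 tumor 9 and Lgr5 tumor 10. Col18a1, the precursor of endostatin, did not pass in either line (0.77 ± 0.26 in the K8 line, adjusted p = 0.0649).

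Among fibril-associated chains, Col14a1, which binds the surface of type I fibrils, was higher in both lines. It read 9.74, 10.58 and 11.05 in Lgr5 tumors, against 9.04, 9.68 and 9.84 in Lgr5 glands. In K8 tumors it read 9.25, 10.32 and 10.72, against 8.60 and 9.09 in K8 glands. Lgr5 tumor 3 lay within the range of the Lgr5 glands, and the K8 groups did not overlap. The differences were 0.98 ± 0.31 (adjusted p = 0.0352) and 1.23 ± 0.36 (adjusted p = 0.0367), each kept in 19 of 25 fits that left out 1 array. The Lgr5 call ended without Lgr5 tumor 2, 7 or 9 or any 1 Lgr5 gland, and the K8 call without K8 tumor 2, 3, 6 or 10 or either K8 gland.

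Col9a2, a chain of the cartilage-type collagen IX, and Col7a1, the anchoring fibril chain that ties epithelium to stroma, passed in the K8 line and not in the Lgr5 line. Col9a2 read 7.68, 8.35 and 8.70 in K8 tumors and 7.39 and 7.74 in K8 glands, a difference of 0.75 ± 0.23 (adjusted p = 0.0435). Col7a1 read 7.63, 7.82 and 8.06 against 7.37 and 7.47, a difference of 0.42 ± 0.13 (adjusted p = 0.0472). K8 tumor 9 was the 1 K8 tumor within the gland range for Col9a2, and the groups did not overlap for Col7a1. These calls lay near the threshold and were kept in 12 and 10 of 25 fits that left out 1 array. Either K8 gland ended both calls, as did K8 tumor 1, 2, 4, 5, 6, 8 or 10 and Lgr5 tumor 4, 7 or 9. K8 tumor 3 also ended that of Col9a2, and Lgr5 tumor 1, Lgr5 gland 1 or Lgr5 gland 3 that of Col7a1. Both genes had a larger difference in the K8 line than in the Lgr5 line before adjustment, by 0.95 ± 0.30 for Col9a2 and 0.50 ± 0.17 for Col7a1, but neither passed (limma adjusted p = 0.781 for both).

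The second comparison set K8 tumors against Lgr5 tumors, which differ in the driver of the recombinase and in strain background. Of the 43 members 10 were higher in K8 tumors and 0 were lower, where 12.3% of all genes were higher and 9% lower, 21.3% in all. By role they were 4 fibril-associated chains, 2 type IV chains, 1 fibrillar chain, 1 transmembrane collagen, and Col7a1 and Col26a1. The median difference over the 43 members was 0.04, against 0.01 over all genes. Without Lgr5 tumors 2, 6, 7, 8 and 9 0 members and 0 of all 19937 genes passed (limma), and the 10 kept their sign. With all 7 arrays left out the count was again 0, against 0% of all genes higher. With K8 tumor 9 and Lgr5 tumor 10 left out the count was 10, all the same genes, against 16.1% of all genes. Without Lgr5 tumor 3 it was 12 higher and 2 lower, against 16.6% higher. With array weights 13 were higher (22.4%) and 2 lower, and with replicate numbers blocked 10 were higher (12.5%).

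All 3 chains of collagen IX, a fibril-associated collagen named for its place on cartilage fibrils, were higher in K8 tumors. Col9a1 read 7.42, 8.46 and 8.67 in K8 tumors and 6.69, 7.24 and 8.18 in Lgr5 tumors. Lgr5 tumors 2, 6, 7, 8 and 9 read 6.69 to 7.29, and the other Lgr5 tumors 7.19 to 8.18, so the K8 tumors other than K8 tumor 9, at 8.04 and above, exceeded every Lgr5 tumor but Lgr5 tumor 5. The difference was 1.02 ± 0.24 (2.03-fold; adjusted p = 0.0137), and 0.66 without the 5 fat-rich tumors (adjusted p = 0.602). Lgr5 gland 2 read 9.32, above every tumor, while the other glands read 7.13 to 7.78.

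The other chains of collagen IX differed less. Col9a2 read 7.46, 7.60 and 8.37 in Lgr5 tumors, against the 7.68, 8.35 and 8.70 of K8 tumors, a difference of 0.58 ± 0.13 (adjusted p = 0.0129). Col9a3 read 8.56, 8.69 and 9.10 in K8 tumors and 7.65, 8.26 and 8.73 in Lgr5 tumors, a difference of 0.49 ± 0.13 (adjusted p = 0.0154). For Col9a3 the 5 fat-rich tumors read 7.65 to 8.10 and the other Lgr5 tumors 8.41 to 8.73, so all 5 fat-rich tumors lay below every K8 tumor, as did Lgr5 tumors 1, 4 and 5, while Lgr5 tumors 3 and 10 lay within the K8 range. Without the 5 the differences were 0.41 for Col9a2 and 0.15 for Col9a3 (adjusted p = 0.585 and 0.653). Of 7 chondrocyte markers in a fixed list, 1 was higher in K8 tumors, Hapln1, a link protein of cartilage matrix, by 0.14 ± 0.04 (adjusted p = 0.0258). The other 6 did not pass. As a share 14.3% of the list was higher, near the 12.3% of all genes.

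The epithelial basement membrane chains Col4a5 and Col4a6 were both higher in K8 tumors. Col4a5 read 7.58, 8.03 and 8.40 in K8 tumors and 6.72, 7.24 and 8.21 in Lgr5 tumors, a difference of 0.71 ± 0.16 (1.63-fold; adjusted p = 0.0128). Col4a6 read 7.31, 7.81 and 8.22 against 6.11, 6.61 and 8.52, a difference of 0.87 ± 0.25 (1.83-fold; adjusted p = 0.0224). Lgr5 tumors 2, 6, 7, 8 and 9 were the 5 lowest arrays of all 25 for both genes, at 6.72 to 7.14 and 6.11 to 6.58, and Lgr5 tumor 3 was the highest array for Col4a6. Without the 5 low arrays the differences were 0.31 and 0.26 (adjusted p = 0.604 and 0.763). The main chains Col4a1 and Col4a2, whose overlapping start is printed above, did not pass between the tumors, at 0.25 ± 0.28 and 0.20 ± 0.26.

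Col11a1, a minor fibrillar chain known from cartilage and from activated tumor stroma, read 8.09, 9.19 and 9.54 in K8 tumors and 6.91, 7.94 and 9.51 in Lgr5 tumors. The 5 fat-rich Lgr5 tumors read 6.91 to 7.24, and the other Lgr5 tumors read 8.64 to 9.51, within the K8 range. The difference was 1.04 ± 0.33 (2.05-fold; adjusted p = 0.0324), and 0.07 without the 5 (adjusted p = 0.936). The call was kept in 16 of 25 fits that left out 1 array, and ended without K8 tumor 3, 4, 5 or 10 or any 1 of the 5 fat-rich tumors.

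**Figure D3:**
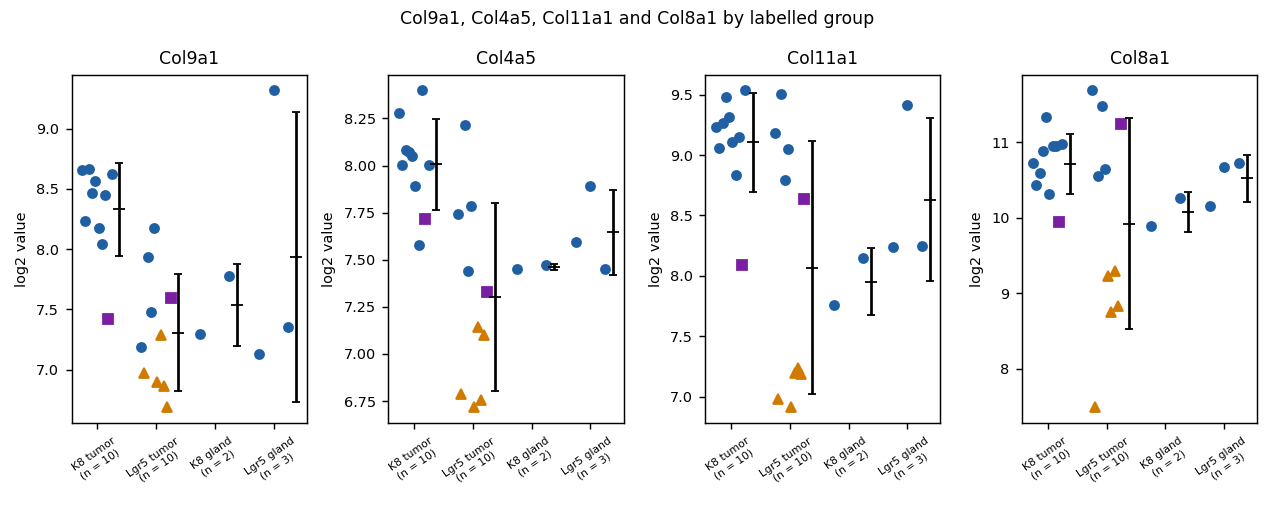
Log2 values of Col9a1, Col4a5, Col11a1 and Col8a1 in every array by labelled group, with the mean ± SD of the group as a bar beside the points. Triangles are Lgr5 tumors 2, 6, 7, 8 and 9, squares are K8 tumor 9 and Lgr5 tumor 10, and circles are all other arrays. For Col4a5, Col11a1 and Col8a1 the triangles lie below every other array.

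The other members higher in K8 tumors were Col16a1, a fibril-associated chain, at 0.60 ± 0.14 (adjusted p = 0.0125), Col23a1, a transmembrane collagen, at 0.38 ± 0.10 (adjusted p = 0.0157), Col7a1 at 0.27 ± 0.08 (adjusted p = 0.0203), and Col26a1, an uncommon collagen first described in testis and ovary, at 1.14 ± 0.33 (adjusted p = 0.0223). Col16a1 read 7.53, 8.12 and 8.30 in K8 tumors and 7.04, 7.41 and 8.06 in Lgr5 tumors. Col26a1 read 7.23, 8.29 and 9.25 in K8 tumors and 6.72, 6.99 and 9.41 in Lgr5 tumors. For Col26a1 the Lgr5 tumors were all at or below 7.34 except Lgr5 tumor 5, the highest array of all, and the groups overlapped for all 4 genes.

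Col8a1 and Col12a1 had wide spreads among Lgr5 tumors but did not pass in any comparison with arrays weighted equally. With array weights Col12a1 was called between Lgr5 tumors and Lgr5 glands, as were 7815 of all 19937 genes. Col8a1 was called between the tumors in that setting, as were 7997 of all genes. Col8a1 read 7.49 to 9.29 in the 5 fat-rich Lgr5 tumors, 10.55 to 11.69 in the other Lgr5 tumors, 9.94 to 11.34 in K8 tumors and 9.89 to 10.72 in glands. Col12a1 read 7.17 to 9.05 in those 5 tumors, 9.48 to 11.30 in the other Lgr5 tumors, 9.04 to 10.42 in K8 tumors and 10.21 to 10.81 in glands. Both genes were low in the fat-rich arrays. Lgr5 tumors 1, 4 and 10, which had high skeletal muscle markers, were the highest arrays for Col12a1, at 11.27 to 11.30. K8 tumor 7, which also had high muscle markers, read 10.30, and the part of muscle was not tested. Between the tumors the difference was 0.79 ± 0.41 for Col8a1 (limma adjusted p = 0.177) and 0.58 ± 0.48 for Col12a1 (adjusted p = 0.422). Col5a3, another type V chain, went the other way: the 5 fat-rich tumors read 7.76 to 8.42, the other Lgr5 tumors 6.88 to 7.54 and K8 tumors 7.03 to 7.80, and it did not pass (adjusted p = 0.286).

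The main fibrillar and type VI chains did not pass between the tumors. Col1a1, Col1a2 and Col3a1 differed by 0.10 ± 0.26, 0.10 ± 0.23 and -0.14 ± 0.27, each with a 95% interval that spans 0. Col6a1 was nearest to the threshold, at -0.41 ± 0.16 (adjusted p = 0.069), lower in K8 tumors.

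**Figure D4:**
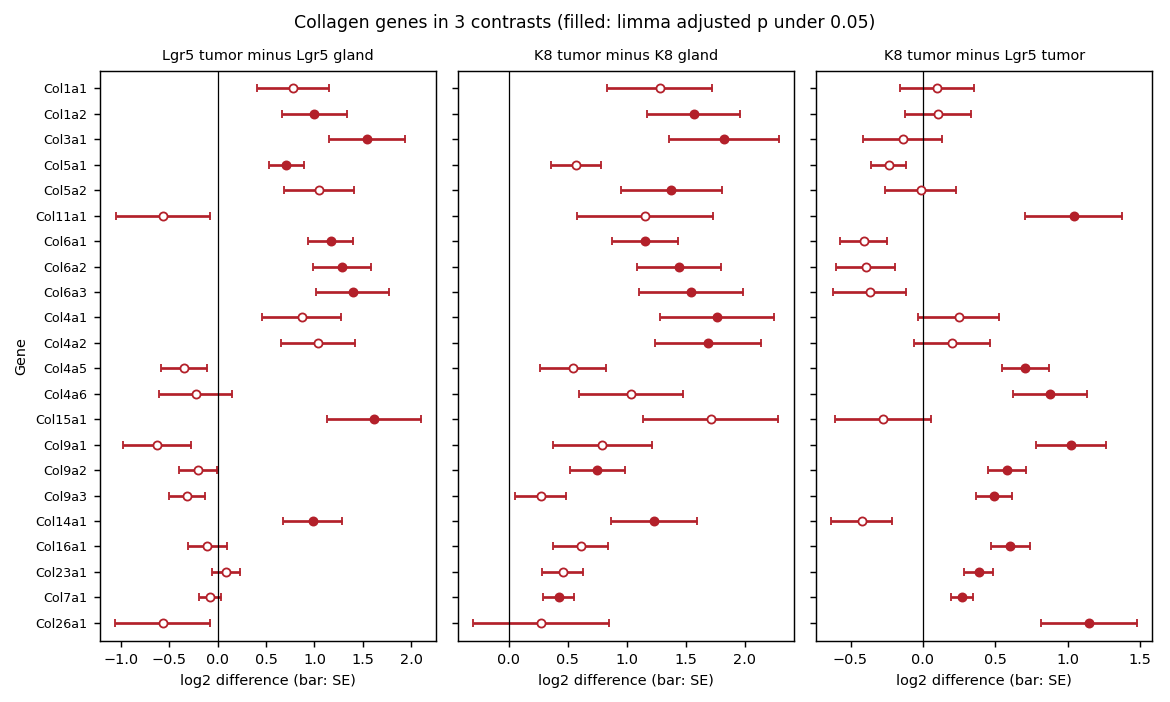
Log2 difference of the 21 collagen genes called in any comparison, and of Col1a1, in 3 comparisons: Lgr5 tumor minus Lgr5 gland, K8 tumor minus K8 gland, and K8 tumor minus Lgr5 tumor. Points are limma estimates, bars are SEs and filled points passed at an adjusted p under 0.05, with 8, 11 and 10 filled points.

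Between K8 and Lgr5 glands 0 of 43 members and 0 of all genes passed (limma), with 1 member, Col28a1, and 1.6% of all genes at an unadjusted p under 0.05. With 2 and 3 arrays the intervals were wide: for Col3a1 the K8 glands were at 9.37 and the Lgr5 glands at 9.79 on average, and for Col14a1 the difference was -0.68 with a 95% interval of -1.56 to 0.21. The difference between the tumor-gland differences of both lines also passed for 0 members and 0 of all genes, with 9 members and 4.43% of all genes at an unadjusted p under 0.05. Those 9 include Col9a1, at 1.42 ± 0.55, and Col4a5, at 0.89 ± 0.37.

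Chains of 1 molecule were compared within arrays, by the SD over 25 arrays of the difference between both chains. For Col4a1 and Col4a2 the SDs were 0.81 and 0.79, and the SD of their difference was 0.11, with a range of 0.37. For Col1a1 and Col1a2, which share no locus, the SDs were 0.69 and 0.71 and that of the difference was 0.18. For Col6a1 and Col6a2, neighbours on chromosome 10, it was likewise 0.18. It was larger for Col4a5 and Col4a6 (SDs of 0.48 and 0.70, difference 0.29) and for Col9a1 and Col9a2 (0.71 and 0.41, difference 0.41). For Col5a1 and Col5a2 the SDs were 0.39 and 0.72 and that of the difference 0.42. Col4a3 and Col4a4, which hardly varied (SDs of 0.08 and 0.06), gave 0.08. The SD of the difference also grows where 1 chain varies more than the other, so it does not rank how closely pairs follow each other. Col8a1 varied widely and Col8a2 little: Col8a1 had an SD of 0.97, Col8a2 of 0.16, and their difference of 0.94. All these SDs include the differences between the labelled groups, and probe sets respond differently to the same change.

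**Figure D5:**
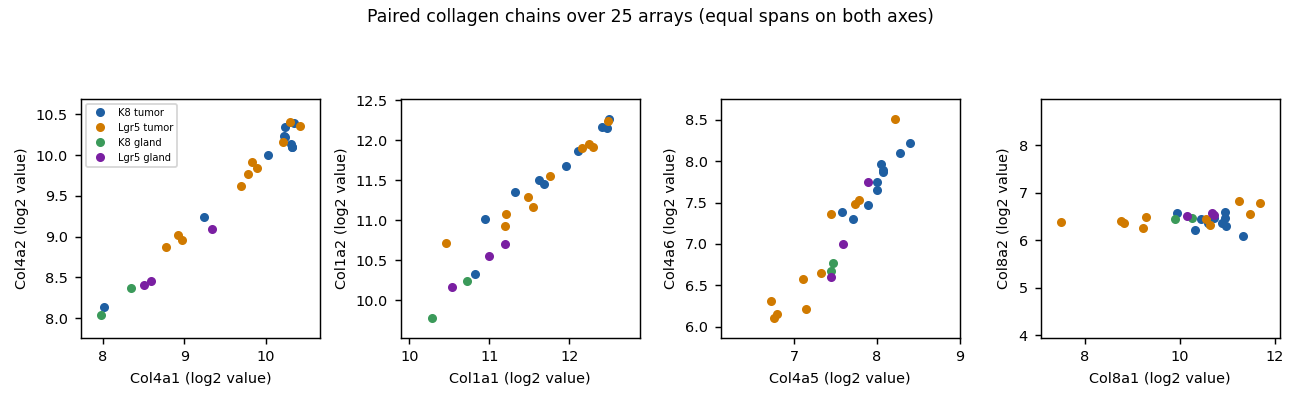
Log2 value of one chain against its partner in each of the 25 arrays, coloured by labelled group, with equal spans on both axes of a panel. Col4a2 follows Col4a1 and Col1a2 follows Col1a1 along a line. Col4a6 follows Col4a5 and spans a wider range, and Col8a2 stays between 6.09 and 6.84 while Col8a1 ranges from 7.49 to 11.69.

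The machinery that makes and organises collagen was read from lists of 68 measured genes. In the Lgr5 line 18 were higher in tumor arrays and 4 lower, in the K8 line 21 higher and 0 lower, and between the tumors 9 were higher in K8 and 6 lower. As shares these were 26.5% higher and 5.88% lower in the Lgr5 line, where 5.28% and 10.6% of all genes were, and 30.9% higher in the K8 line, against 3.42%. Between the tumors they were 13.2% and 8.82%, near the 12.3% and 9% of all genes. Without Lgr5 gland 1 the Lgr5 line had 2 higher, and without K8 gland 1 or K8 gland 2 the K8 line had 0 and 2. Genes of cross-linking and fibril assembly were higher in 5 of 12 in the Lgr5 line and in 4 of 12 in the K8 line. Lum and Dcn, small proteoglycans that coat fibrils, and Sparc, a collagen-binding matrix protein, were higher in both. Lum differed by 1.78 ± 0.52 (adjusted p = 0.0273) in the Lgr5 line and 3.01 ± 0.61 (adjusted p = 0.012) in the K8 line. Without the 5 fat-rich Lgr5 tumors 0 of the 68 passed in the Lgr5 line (limma), where 0% of all genes were higher. In the K8 line 27 of the 68 passed in that fit, all higher, against 4.73% of all genes.

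Genes of chain modification and folding were higher in 4 of 16 in the K8 line, where 3.42% of all genes were. Serpinh1, the collagen chaperone HSP47, differed by 1.15 ± 0.29 (limma adjusted p = 0.0225) and Plod1, a lysyl hydroxylase, by 1.13 ± 0.29 (adjusted p = 0.0217). In the Lgr5 line 1 was higher, Crtap, a part of the prolyl 3-hydroxylase complex, and 1 lower, P4hb, a subunit of prolyl 4-hydroxylase. Each is 6.25% of the list, where 5.28% of all genes were higher and 10.6% lower. In the list for secretion and propeptide removal, Pcolce, which enhances removal of the C-propeptide, was higher in both lines, at 1.38 ± 0.28 and 1.30 ± 0.33 (adjusted p = 0.00841 and 0.021). The collagen receptor Ddr2, which binds fibrillar collagen on mesenchymal cells, was higher in both, at 2.19 ± 0.43 and 2.16 ± 0.50 (adjusted p = 0.00733 and 0.0168).

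Of 12 basement membrane partners of type IV collagen, 7 were higher in the Lgr5 line and 5 in the K8 line, where 5.28% and 3.42% of all genes were. Among them were Nid1, the laminin linker nidogen, at 1.92 ± 0.46 and 2.10 ± 0.55 (limma adjusted p = 0.0134 and 0.0239), and Hspg2, the proteoglycan perlecan, at 1.10 ± 0.30 and 1.44 ± 0.35 (adjusted p = 0.0191 and 0.0188). Between the tumors, 3 of the 12 were higher in K8: the epithelial laminin chains Lama3 and Lama5, and Agrn, a basement membrane proteoglycan. Lama3 differed by 1.08 ± 0.33 (limma adjusted p = 0.0272). Over all genes 12.3% were higher in K8 tumors, and without Lgr5 tumors 2, 6, 7, 8 and 9 0 passed. Of 10 proteases and inhibitors, Mmp2, a gelatinase of stromal cells, and its inhibitor Timp2 were higher in both lines, while Mmp13, an interstitial collagenase, was lower in Lgr5 tumors than in Lgr5 glands, by 2.92 on the log2 scale (-2.92 ± 0.87; adjusted p = 0.028).

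Markers of other cell types moved with these groups, and their part in the collagen differences was not tested. Of 11 fibroblast markers 7 were higher in Lgr5 tumors and 2 in K8 tumors than in the glands of their line, with list means of 8.76 to 10.58 in Lgr5 tumors, 8.25 to 9.99 in K8 tumors and 7.78 to 8.79 in glands. Of 10 endothelial markers 8 and 2 were higher, with list means of 8.52 to 9.74, 7.97 to 9.51 and 7.83 to 8.35. Pericyte and smooth muscle markers were higher in 2 of 10 in the Lgr5 line and 4 of 10 in the K8 line. Basal and myoepithelial markers, some on both lists, were higher in 4 of 9 in the K8 line, and 1 was lower in the Lgr5 line. Pericyte list means were 8.11 to 10.28 in K8 tumors and 8.07 and 8.16 in K8 glands, and basal list means 9.38 to 11.67 against 9.53 and 9.56. K8 tumor 9 was the lowest K8 tumor for the fibroblast, endothelial, pericyte and basal lists, as it was for Col3a1, Col4a1 and Col6a1. All 13 adipocyte markers were higher in Lgr5 tumors than in Lgr5 glands and lower in K8 than in Lgr5 tumors, and 9 of 11 squamous markers were lower in tumors than in glands of each line. Of 6 neutrophil markers 5 were lower in Lgr5 tumors and 4 in K8 tumors than in their glands. Of 9 cell cycle markers 7 were lower in Lgr5 tumors than in Lgr5 glands and 0 in K8 tumors than in K8 glands. Between the tumors, 7 of 8 luminal, 4 of 9 basal and 9 of 9 cell cycle markers were higher in K8 tumors. Over all genes 12.3% were higher and 9% lower in K8 tumors. Without Lgr5 tumors 2, 6, 7, 8 and 9 0 of all genes passed between the tumors. Between tumors and glands 5.28% of all genes were higher and 10.6% lower in the Lgr5 line, and 3.42% and 5.69% in the K8 line.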

How the data were processed

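Per the labels' protocols, 100 ng of RNA per sample went through NuGEN Ovation Pico amplification before Affymetrix labelling and hybridisation. The deposited table holds log2 values of 34760 probe sets for 25 arrays, a scale taken from the range of 4.13 to 13.9; the base is not stated in the sources used here. Of software, only affy appears in the submitters' processing notes, unversioned; background correction, summarization and build are not given. Array medians were 6.34 to 6.43, and the number of arrays limits the precision.

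Platform annotation gave 1 symbol to 21640 probe sets, several to 1321 and none to 11799 (unlisted). The brightest probe set was used for 954 symbols with more than 1, among them Col6a5 and Col6a6. All 43 members matched the GRCm38.p6 gene table, with 0 symbols changed. Of the 43, 30 had a mean at or above the median of all genes, 7.20; no filter on low values was applied.

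The model was limma 3.58.1 (R 4.3.3), with 4 group means fitted over the 25 arrays and moderated variances, two-sided, with Benjamini-Hochberg adjustment over 19937 genes at a threshold of 0.05. Errors beside differences are SEs of that fit. The test was checked on simulated data with noise drawn separately for each gene. Those data lack the marker differences among arrays described above, so the check does not cover them. Of 72 pathway genes 68 and of 124 marker entries 119 were measured, and the others were not analysed here. The rule named 8 major chains, the members past the threshold and up to 4 genes of each list by adjusted p. Other members were named after their values were seen. The members and lists were chosen with earlier results of these data known. No 2 arrays held the same values (highest correlation 0.995). Promoter windows came from RefSeq tables of GRCm38.p6. Figures were drawn with matplotlib 3.10.9.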

Additional observations from a re-analysis of the deposited data

Results flagged for a closer look

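In groups of 10 arrays, a value was marked where the gap to its nearest neighbour took up more of the group's range than Dixon's 95% critical value allows. Chance marks about 1 in 20 groups if groups are independent, which these are not, since all genes are read in the same arrays. The 22 named members are the 21 called in any comparison and Col1a1. Among 22 named members in both tumor groups, 6 of 44 groups were marked, and 5 of them were K8 tumor 9, the K8 tumor with squamous markers at the level of the glands. In that array Col4a1 read 8.02, Col4a2 8.14, Col15a1 7.91, Col9a1 7.42 and Col11a1 8.09, each the lowest K8 tumor. The sixth was Col26a1 in Lgr5 tumor 5, at 9.41, the highest of the Lgr5 tumors. Among the members not named only Col4a3 in Lgr5 tumor 7 was marked, and the share over all genes was not counted.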

How the results depend on the processing

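Counts of collagen genes called in the Lgr5 tumor-gland, K8 tumor-gland and tumor-tumor comparisons were 8, 11 and 10. With only the groups compared in the fit, the Lgr5 count was 4 (1.1% of all genes higher). With array weights the first counts were 15 (13 higher, 2 lower; 17.4% of all genes higher) and 23 (13.9%). Without Lgr5 tumors 2, 6, 7, 8 and 9 the Lgr5 and tumor-tumor counts were 0 (0% of all genes higher). Without K8 tumor 9 and Lgr5 tumor 10 the K8 count was 18 (8.09%). Without all 7 arrays it was 22 (11.4%) and the tumor-tumor count 0 (0%). Leaving out 1 array gave 0 to 11, 0 to 18 and 9 to 14. Over the same fits 1.26% to 25%, 0.15% to 17% and 11.5% to 28.6% of all genes were called. The causes were not tested, beyond fewer arrays per group. The gland-gland and difference-of-differences counts were 0 in every alternative run, leave-one-out fits included.

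Replicate numbers in the titles gave no clear sign of pairing. Each group's mean was first subtracted from every gene, and the remaining deviations were correlated between arrays over all genes. For same-numbered K8 and Lgr5 tumors these correlations of deviations ran from -0.147 to 0.513, with 4 of 10 above 0.1. Of the 10, 1 correlated best with its own number. With the number as a replicate block, the counts were 3, 1 and 10 (2.73%, 3.14% and 12.5% of all genes higher), with 2 of the 8, 0 of the 11 and 10 of the 10 calls kept.

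Over the genes followed singly, no called gene changed sign. In the Lgr5 comparison 53 of 385 values lost and 8 gained a call, in the K8 comparison 79 and 6 of 420, and between the tumors 29 and none of 350. Signal over background is unknown from this table, so low members such as Col19a1 carry no detection call.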
